A study of Mus musculus with 9 samples.

Results

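The genes described here are those of cholesterol synthesis and sterol regulation in mouse hepatocyte-derived cells exposed to copper. They were chosen by symbol from a fixed list of 29 genes, and all 29 were found among the 21878 symbols of the deposited count table. Of these, 19 encode enzymes of the pathway (18 on the way to cholesterol, and Ggps1 on a side branch), 6 encode the sterol sensor and its partners, and 4 encode proteins that move or store cholesterol.

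The series holds 9 samples in 3 groups of 3, all from C57BL/6 mice. KO-ATP7B and KO-GFP cells were ATP7B-/- hepatocytes given an ATP7B or a GFP lentivirus, and WT-GFP cells were wild-type hepatocytes given the GFP lentivirus. The growth protocol calls the wild-type cells WT-ATP7B-Heps, but sample titles say GFP, as does the design text, and the name in the titles was kept. Hepatocytes of every group were first turned into liver progenitors with HGF, EGF, Y-27632, A8301, CHIR99021, S1P and LPA. After transduction they were redifferentiated for 3 weeks with OSM, DAPT and SB431542, and all 9 samples then received CuCl2 for 24 hours. The protocols give a dose of 100 µM and the treatment field gives 100 mM, a conflict that the labels do not settle. ATP7B is the copper exporter that is defective in Wilson disease.

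The 9 count columns carry numbers and no group names. Only 2 of them could be tied to samples, through files of those samples that bear the same number, and these are WT-GFP replicates 1 and 2. The other 7 were not used, because only their order would assign them to groups. No comparison between genotypes or vectors was therefore made, and the results below describe sterol genes in wild-type cells and how far they differed between these 2 libraries. Cells without copper were not analysed here.

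Cholesterol is made from acetyl-CoA by a chain of enzymes that runs through mevalonate, isoprenoid diphosphates, squalene and lanosterol. Most of these enzymes are under the control of SREBP2, the product of Srebf2, a membrane-bound transcription factor of the endoplasmic reticulum. When membrane sterol is low, the escort protein SCAP carries SREBP2 to the Golgi, where the site-1 and site-2 proteases release its active part, whereas INSIG proteins hold SCAP back when sterol is plentiful. SREBP2 binds sterol regulatory elements in promoters together with the general factors NF-Y and Sp1, and the liver is a main site of this synthesis.

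The promoters of 5 sterol genes are shown with their matches to these sites, NF-Y and Sp1 boxes in all 5 and a sterol element or its core in Hmgcs1 and Srebf2 alone. They are the genes with the only full match to a sterol element (Hmgcs1), with the greatest differences between the libraries (Mvk and Mvd), with the sterol-controlled sensor protein (Insig1) and with the regulator itself (Srebf2). The sequences are RefSeq's, on GRCm38.p6, read 5′ to 3′ in the direction of the gene and ending before the earlier of the RefSeq and GENCODE start sites. They cover chr13:119690101-119690350 (plus strand), chr5:114444019-114444268 (plus strand), chr8:122443423-122443672 (minus strand), chr5:28071162-28071362 (plus strand) and chr15:82147019-82147180 (plus strand). Capitals mark matches on either strand to the sterol element TCACNCCAC or its shorter core TCACCCCA, the NF-Y box CCAAT, the Sp1 box GGGCGG and the E-box CACGTG. Matches on the opposite strand stand as the reverse complement, and the core lies within the full element of Hmgcs1.
Hmgcs1: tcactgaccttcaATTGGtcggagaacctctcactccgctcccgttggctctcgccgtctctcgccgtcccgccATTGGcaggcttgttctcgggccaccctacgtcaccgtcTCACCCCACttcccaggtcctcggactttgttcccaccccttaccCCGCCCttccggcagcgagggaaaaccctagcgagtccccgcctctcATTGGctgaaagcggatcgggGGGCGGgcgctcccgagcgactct
Mvk: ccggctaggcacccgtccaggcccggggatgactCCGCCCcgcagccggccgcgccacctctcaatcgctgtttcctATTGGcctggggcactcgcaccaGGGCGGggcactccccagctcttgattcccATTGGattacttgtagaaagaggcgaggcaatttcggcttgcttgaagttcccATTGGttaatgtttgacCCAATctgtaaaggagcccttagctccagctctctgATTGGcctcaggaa
Mvd: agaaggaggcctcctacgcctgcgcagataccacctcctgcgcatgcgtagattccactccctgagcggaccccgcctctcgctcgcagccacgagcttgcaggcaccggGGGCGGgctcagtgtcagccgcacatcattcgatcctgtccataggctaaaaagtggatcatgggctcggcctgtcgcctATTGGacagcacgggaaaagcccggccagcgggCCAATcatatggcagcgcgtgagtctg
Insig1: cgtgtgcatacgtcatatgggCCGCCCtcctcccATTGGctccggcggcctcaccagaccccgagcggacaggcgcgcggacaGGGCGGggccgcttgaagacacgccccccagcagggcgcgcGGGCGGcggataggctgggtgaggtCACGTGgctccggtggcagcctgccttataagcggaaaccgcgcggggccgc
Srebf2: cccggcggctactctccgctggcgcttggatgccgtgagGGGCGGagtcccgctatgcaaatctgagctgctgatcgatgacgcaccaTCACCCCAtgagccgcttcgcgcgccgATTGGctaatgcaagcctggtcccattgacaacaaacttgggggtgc

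RefSeq windows of 250 bases before to 50 bases after a start site were found for 24 of the 29 genes, 30 windows in all. The motifs were picked with these sequences in view, so the shares below are a description. The NF-Y box occurred in 20 of the 24 genes (83.3%), against 42.5% of the 4664 genes of the table that had a window and reached 10 FPKM, and 41.1% of all 27025 genes with a window. The Sp1 box occurred in 21 of the 24 genes (87.5%), against 73.8% of the genes at 10 FPKM or more and 38.2% of all. Both boxes were found in 18 of the 24 sterol genes, for Insig2 in different windows. The share of other genes with both was not computed, so this count does not show that the boxes go together. By window, which removes the advantage of genes with several start sites, the NF-Y box was in 66.7% of the sterol windows, 37.5% of the windows of genes at 10 FPKM or more and 37.4% of all. Most promoters of these enzymes thus hold the NF-Y letters close to the start site, whereas the Sp1 letters are also in most promoters of other expressed genes.

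The full sterol element was found in Hmgcs1 alone, against 1.39% of the genes at 10 FPKM or more and 1.44% of all. Its first base lies at position -137 from the RefSeq start site. The shorter core was found in Hmgcs1 and Srebf2, against 1.69% of the genes at 10 FPKM or more and 1.77% of all. In Srebf2 it lies at -162 from the RefSeq start site. The sequence of Srebf2 printed above ends short of that site, just before the GENCODE start. The E-box was in 5 of the 24 genes (20.8%, against 12.7% of the genes at 10 FPKM or more and 8.09% of all), Insig1 among them. Sterol elements vary in sequence, so windows without these letters may hold other forms. GC content had a median of 61.7% in the sterol windows, 62.0% in those of genes at 10 FPKM or more and 52.7% in all.

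**Figure D1:**
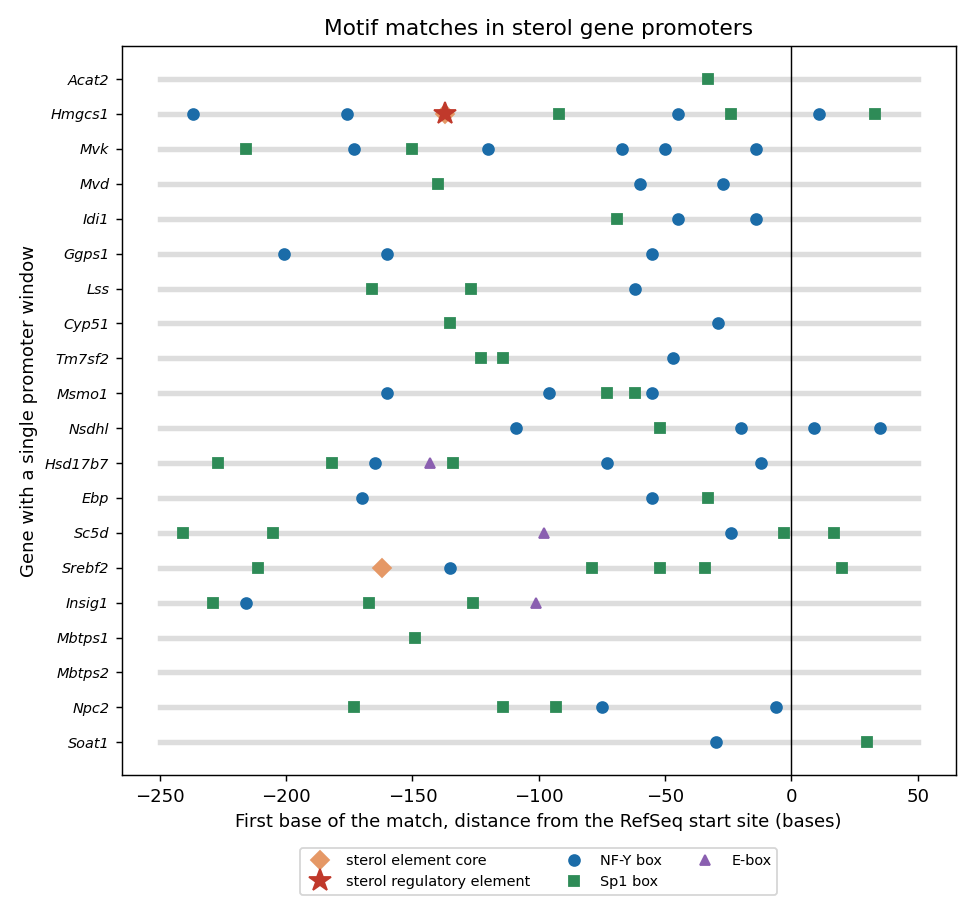
Motif matches in the promoter windows of the 20 sterol genes that have a single RefSeq start site. The x axis gives the distance of the first base of each match from the start site in bases and each row is a gene, with grey bars for the window searched. NF-Y and Sp1 boxes recur in most rows, the full sterol element is in Hmgcs1 alone and the shorter core also in Srebf2.

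All 29 genes were expressed in WT-GFP cells. Levels are the authors' FPKM, reads scaled by gene length and library total, so that genes of unlike length can be set side by side. The median gene stood at 29.0 FPKM, or 31.2 FPKM in replicate 1 and 26.8 FPKM in replicate 2, beside 9.37 FPKM over the 12302 genes tested below. Of the 29 genes, 25 reached 10 FPKM and none was below 1 FPKM. Of the 12302 genes tested, 5921 reached 10 FPKM and 1626 were below 1 FPKM. Together they took a share of the counts of 0.415% in replicate 1 (Wilson 95% bounds 0.412 and 0.418%), against 0.372% in replicate 2 (bounds 0.369 and 0.375%). The 19 enzymes accounted for most of that gap. Their share was 0.265% (0.263 to 0.268%) in replicate 1, against 0.229% (0.227 to 0.232%) in replicate 2, whereas that of the other 10 genes was 0.150% (0.148 to 0.152%) and 0.142% (0.141 to 0.144%). The libraries held 18532457 counts (replicate 1) and 17821682 counts (replicate 2), and intervals cover counting error only.

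**Figure D2:**
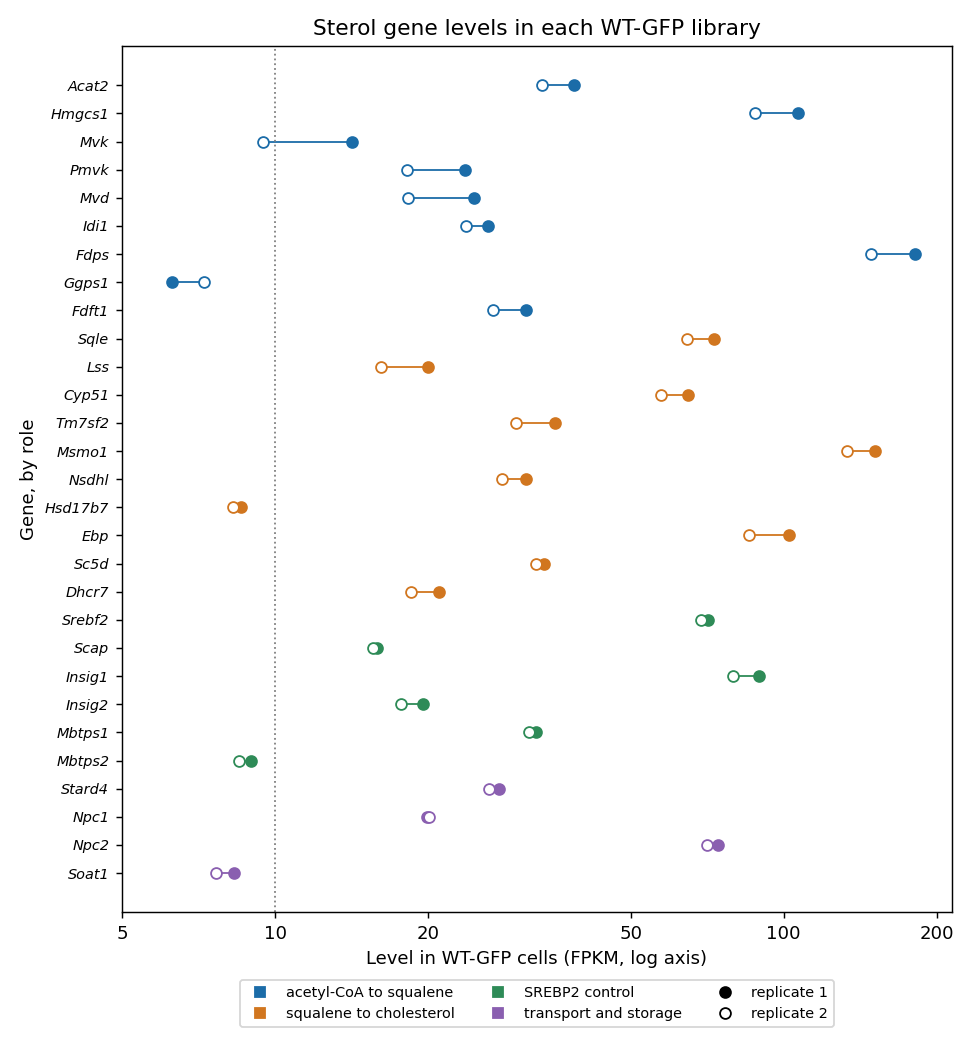
Levels of the 29 sterol genes in WT-GFP replicate 1 (filled) and replicate 2 (open), in FPKM on a log axis, with genes grouped by role and a dotted line at 10 FPKM. By the authors' lengths Fdps and Msmo1 stand highest and Ggps1 and Soat1 lowest, whereas by GENCODE lengths Hmgcs1 and Insig1 do so and Soat1 and Mbtps2 are lowest, and the points of a pair lie further apart for most synthesis enzymes than for the control and transport genes.

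The labelled cell type was checked against marker genes. Of 10 hepatocyte markers 8 reached 10 FPKM, whereas the defining hepatocyte genes Cps1 and Cyp2e1 were at 1.21 ± 0.00146 FPKM and 2.26 ± 0.264 FPKM (SD, n = 2). None of 8 macrophage, 8 stellate, 8 endothelial and 6 lymphocyte markers reached 10 FPKM, and 4, 2, 4 and 5 of them had no count in either library. Summed levels were 2.64 and 2.91 FPKM for macrophage, 1.41 and 1.46 FPKM for stellate, 1.76 and 1.94 FPKM for endothelial and 0.0407 and 0 FPKM for lymphocyte markers in replicates 1 and 2. A count of 0 allows up to 3 counts, or 0.162 CPM in replicate 1 and 0.168 CPM in replicate 2. In bulk RNA, fewer cells of a type and less RNA per cell cannot be told apart.

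Each gene's counts in the 2 libraries were compared by an exact binomial test given the library totals, with Benjamini-Hochberg adjustment over the 12302 genes whose mean count was 10 or more. This test compares 2 libraries of 1 group, not conditions, and sees counting error only. Ratios are of replicate 1 to replicate 2, so a positive log2 ratio means higher in replicate 1. Of the 29 sterol genes 16 were higher in replicate 1, where 6.38% of all genes tested were called in that direction, and 1 was lower, where 8.38% were. Both directions together made up 14.8% of all genes. The called genes were mostly enzymes: 15 of 19 enzymes were higher and 1 lower, against 1 higher and 0 lower of the other 10 genes. Of the other 10, Insig2 and Npc2 had an unadjusted p under 0.05 in this exact test without passing the adjustment.

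The direction was shared more widely than the calls. The ratio was positive in 27 of the 29 genes, with a median log2 ratio of 0.17, beside 47.0% of all genes tested and a median of -0.01. Among the 7248 genes whose mean count lay within the range of the sterol genes (383 to 7044 counts), the ratio had an SD of 0.13 and its middle 95% ran from -0.27 to 0.22. Mvk, Mvd, Pmvk, Lss, Fdps, Hmgcs1, Ebp, Tm7sf2 and Fdft1 lay above that range, all of them enzymes, and no sterol gene lay below it.

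The spread between libraries beyond counting error bears on these calls. With a common dispersion estimated from the same 2 libraries (a coefficient of variation of 5.62%), edgeR's exact test called 0.642% of all genes, 0.146% as higher in replicate 1. Of the 17 sterol calls 1 was left, Mvk (adjusted p = 0.0416, edgeR exact test with Benjamini-Hochberg adjustment). That dispersion counts every difference between the libraries as error, sterol genes included.

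**Figure D3:**
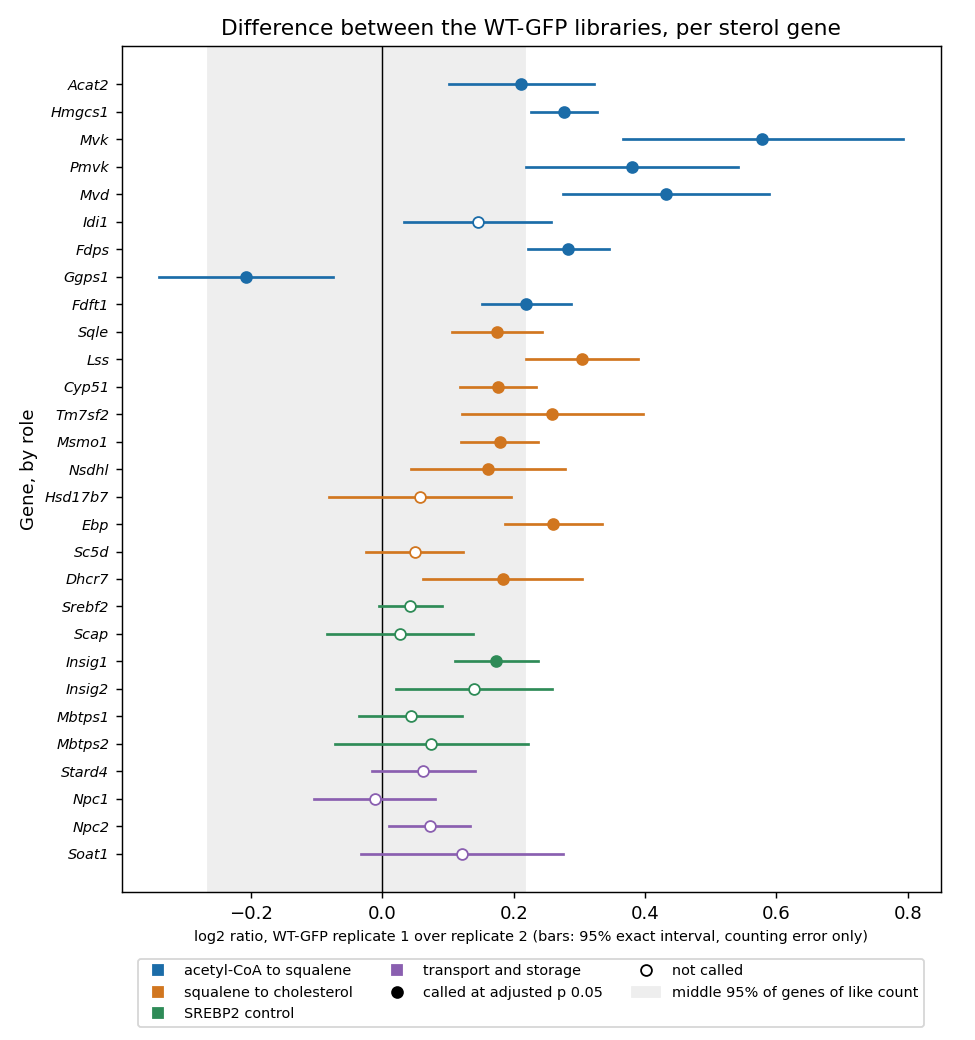
Log2 ratio of WT-GFP replicate 1 over replicate 2 for each sterol gene, with its 95% exact interval for counting error. Filled points were called by the exact binomial test at an adjusted p of 0.05, and the grey band is the middle 95% of genes of like count (-0.27 to 0.22). Points right of the band are all synthesis enzymes, and Ggps1 is the only called gene left of 0.

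The enzymes from acetyl-CoA to squalene had the widest differences. Of these 9 genes 7 were higher in replicate 1, 1 was lower and 1 was not called, with a median log2 ratio of 0.28. Acat2, the cytosolic thiolase that joins acetyl-CoA units, was at 38.8 FPKM in replicate 1 and 33.5 FPKM in replicate 2. Hmgcs1, the cytosolic HMG-CoA synthase (ENSMUSG00000093930.2, chromosome 13, 119690379 to 119708260, plus strand, GRCm38, a protein-coding gene), stood at 106 and 87.9 FPKM, from 7252 and 5758 counts in replicates 1 and 2. Its log2 ratio was 0.28 (95% exact interval 0.23 to 0.33, adjusted p = 3.95e-25, exact binomial test). It carries the full sterol element shown above.

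Next come the kinases and the decarboxylase that turn mevalonate into isopentenyl diphosphate, and these showed the greatest ratios of all 29 genes. Mvk, mevalonate kinase (ENSMUSG00000041939.14, chromosome 5, 114444269 to 114460591, plus strand, a protein-coding gene), stood at 14.2 FPKM in replicate 1 and 9.47 FPKM in replicate 2, from 466 and 300 counts. Its log2 ratio was 0.58 (0.37 to 0.79, adjusted p = 2.11e-06, exact binomial test), a 1.49-fold difference, and its promoter above holds 5 NF-Y boxes. In the authors' FPKM Mvk was the only gene of the 29 that reached 10 FPKM in one library and not in the other. Mvd, mevalonate diphosphate decarboxylase (ENSMUSG00000006517.5, chromosome 8, 122433601 to 122443422, minus strand, a protein-coding gene), stood at 24.7 and 18.3 FPKM in replicates 1 and 2, from 805 and 574 counts. Its log2 ratio was 0.43 (0.28 to 0.59, adjusted p = 1.79e-06, exact binomial test). Pmvk, phosphomevalonate kinase, was at 23.6 and 18.2 FPKM, which made a log2 ratio of 0.38 (interval 0.22 to 0.54, adjusted p = 7.96e-05 in the same exact test). These 3 genes thus stood 1.30-fold to 1.49-fold higher in replicate 1. They had the lowest mean counts of the list (383 for Mvk, 649.5 for Pmvk and 689.5 for Mvd) and were among its shorter genes.

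At the isoprenoid steps the genes parted. Fdps, farnesyl diphosphate synthase, had the highest level of the 29 by the authors' lengths, with 181 FPKM in replicate 1 and 149 FPKM in replicate 2. With GENCODE exon lengths its mean was 57.2 FPKM, below Hmgcs1 (77.8 FPKM), Insig1 (72.3 FPKM), Ebp (70.8 FPKM) and Cyp51 (60.2 FPKM). Its log2 ratio was 0.28 (0.22 to 0.34, adjusted p = 9.96e-18, exact binomial test). Ggps1, which makes geranylgeranyl diphosphate and so leads away from cholesterol towards protein prenylation, had the lowest level by the authors' lengths, with 6.28 and 7.25 FPKM, but 10.9 FPKM with GENCODE lengths, above 7 other sterol genes. It was the one gene lower in replicate 1, its log2 ratio being -0.21 (-0.34 to -0.08, adjusted p = 0.0186 in the exact test). Idi1, the isopentenyl diphosphate isomerase, was at 26.3 and 23.8 FPKM and was not called (log2 ratio 0.15, 0.03 to 0.26, adjusted p = 0.0666, exact binomial test), but passed with TMM (adjusted p = 0.0388) and DESeq2 scaling (adjusted p = 0.0335). Fdft1, squalene synthase and the entry to the sterol branch, was at 31.2 and 26.8 FPKM, a log2 ratio of 0.22 (0.15 to 0.29). Fdps was thus 28.8-fold above Ggps1 in replicate 1 and 20.5-fold in replicate 2 on the FPKM scale. With GENCODE exon lengths in place of the authors' the fold was 5.30, because the 2 sources give very different lengths for both genes (1461 and 4208 bases for Fdps, 7628 and 4721 bases for Ggps1, authors' length given before GENCODE's).

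Of the 10 enzymes from squalene to cholesterol 8 were higher in replicate 1 and 0 lower, with smaller ratios than in the mevalonate steps (median 0.18, range 0.05 to 0.30). Sqle, the squalene epoxidase that is a main control point of the pathway, was at 72.8 FPKM in replicate 1 and 64.5 FPKM in replicate 2. Lss, which closes the ring system to lanosterol, was at 20.0 and 16.2 FPKM and had the greatest ratio of this stretch (0.30, 0.22 to 0.39, adjusted p = 2.14e-10, exact binomial test). Cyp51, the lanosterol demethylase, was at 64.8 and 57.3 FPKM. Each of these genes was thus higher in replicate 1, by 1.13-fold for Sqle and Cyp51 and by 1.23-fold for Lss.

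The enzymes that trim and reduce the lanosterol product spanned a wide range of levels. Msmo1, the methylsterol oxidase, was highest by the authors' lengths, with 151 and 133 FPKM in replicates 1 and 2. Ebp, the sterol isomerase, followed with 102 and 85.4 FPKM, although GENCODE lengths turn this order round, with 70.8 FPKM for Ebp and 42.2 FPKM for Msmo1 (Ebp log2 ratio 0.26, 0.19 to 0.33, adjusted p = 4.20e-10, exact binomial test). Hsd17b7, the keto-sterol reductase that works in the same complex as Nsdhl and Msmo1, was lowest with 8.58 and 8.25 FPKM. Levels within this demethylating complex thus differed much more between genes than between the libraries. Tm7sf2, a sterol reductase, was at 35.5 and 29.7 FPKM, and Nsdhl, a sterol dehydrogenase, at 31.2 and 27.9 FPKM. Dhcr7, the reductase that ends one branch of the pathway, was at 21.0 and 18.5 FPKM. All 3 were called higher in replicate 1, Nsdhl only just (adjusted p = 0.0476, exact binomial test). Sc5d, the desaturase that acts just before Dhcr7, was at 33.7 and 32.6 FPKM, and neither Sc5d nor Hsd17b7 was called (log2 ratios 0.05 and 0.06).

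The genes that control SREBP2 differed less between the libraries than the enzymes it controls did, by count of calls. Only Insig1 of 6 was called. That is 16.7%, close to the 14.8% of all genes tested that were called in either direction. The contrast with the enzymes was not tested as such. Srebf2 (ENSMUSG00000022463.8, chromosome 15, 82147181 to 82205379, plus strand, a protein-coding gene) stood at 70.9 FPKM in replicate 1 and 68.8 FPKM in replicate 2, from 7286 and 6802 counts. Its log2 ratio of 0.04 had an interval of -0.01 to 0.09 (adjusted p = 0.252, exact binomial test). The ratio of Hmgcs1 lies outside that interval, which covers counting error only. Ratios of genes of like count had an SD of 0.13 between these libraries, and no interval with that spread was made. Scap, the escort protein, was at 15.9 and 15.6 FPKM (log2 ratio 0.03, -0.08 to 0.14). The Srebf2 transcript was thus close to equal, whereas 15 of 19 enzymes were called higher in replicate 1 by the exact binomial test. By edgeR's test only Mvk was called. A link between Srebf2 and the enzymes was not tested, and RNA counts do not measure cleavage of the SREBP2 protein.

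Insig1 (ENSMUSG00000045294.11, chromosome 5, 28071363 to 28078662, plus strand, a protein-coding gene), itself an SREBP2 target, stood at 89.5 FPKM in replicate 1 and 79.3 FPKM in replicate 2, from 4391 and 3744 counts. Its log2 ratio was 0.17 (0.11 to 0.24, adjusted p = 2.84e-06, exact binomial test), the median of the 29 genes. Insig2, its relative that does not depend on SREBP2 in the same way, was at 19.5 and 17.7 FPKM and was not called (log2 ratio 0.14, 0.02 to 0.26, adjusted p = 0.102, exact binomial test). The intervals of the 2 genes overlap, so no difference between Insig1 and Insig2 in their ratios is shown. In level Insig1 was 4.53 ± 0.0760-fold above Insig2 (SD, n = 2, FPKM), or 3.91-fold with GENCODE lengths. Mbtps1, the site-1 protease, was at 32.6 and 31.6 FPKM. Mbtps2, the site-2 protease, was at 8.96 and 8.51 FPKM, the lowest of this class, and neither protease was called (log2 ratios 0.04 and 0.07).

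With the library totals none of the 4 genes of cholesterol transport and storage was called by the exact binomial test, 1 of them (Npc2) having an unadjusted p under 0.05 and none being called by edgeR's test. Over all genes tested 14.8% were called in either direction, so 0 of 4 does not set these genes apart. Npc2 was called as higher in replicate 1 once the totals were scaled by TMM (adjusted p = 0.0430) or DESeq2 size factors (adjusted p = 0.0333, exact binomial test in both). Npc2, the soluble lysosomal protein that takes up free cholesterol, was highest with 74.1 FPKM in replicate 1 and 70.5 FPKM in replicate 2. Npc1, the lysosomal membrane transporter that receives cholesterol from it, was at 19.9 and 20.1 FPKM. Npc1 had the ratio nearest to 0 of all 29 genes (-0.01, -0.10 to 0.08). Stard4, a cytosolic sterol carrier that is also an SREBP2 target, was at 27.5 and 26.4 FPKM (log2 ratio 0.06, -0.02 to 0.14). Soat1, the enzyme that esterifies cholesterol for storage, was lowest with 8.32 and 7.64 FPKM (log2 ratio 0.12, -0.03 to 0.28). Intervals of these 4 genes reach no higher than 0.28, below the ratio of Mvk, the greatest of the 29. That of Soat1 holds the ratios of called enzymes such as Sqle (0.17) and Ebp (0.26). Those of Npc1, Npc2 and Stard4 end at 0.14 or lower. All 4 intervals cover counting error only, and a difference from the enzymes was not tested.

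**Figure D4:**
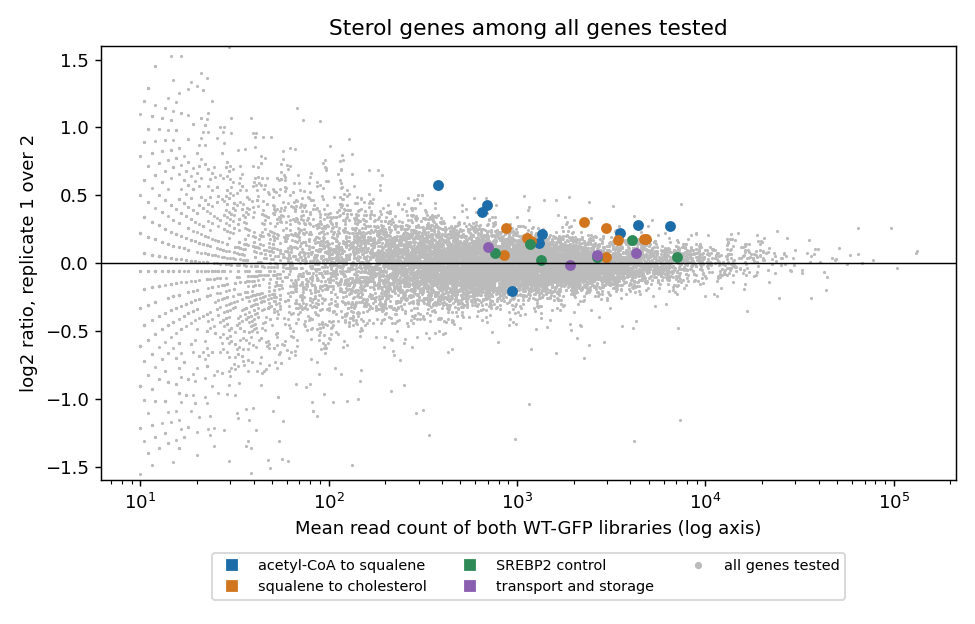
Log2 ratio of WT-GFP replicate 1 over replicate 2 against the mean read count on a log axis, for all genes tested (grey) and the 29 sterol genes (coloured by role). The sterol genes have mean counts of 383 to 7044 and lie mostly above 0. The y axis is limited to 1.6 in size.

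Other genes tied to sterol and SREBP biology were read from a list of 37. Of these, 10 were higher in replicate 1 (27.0%, beside the 6.38% given above), 3 were lower and 24 were not called, with a median log2 ratio of 0.06. By level Scd2, a fatty acid desaturase, led with 711 FPKM in replicate 1 and 594 FPKM in replicate 2 (log2 ratio 0.26, adjusted p = 8.75e-224, exact binomial test). Acly, which supplies cytosolic acetyl-CoA, was at 108 and 99.6 FPKM (log2 ratio 0.12, adjusted p = 6.65e-06, same exact test). Fasn, the fatty acid synthase, was at 95.3 and 86.3 FPKM (log2 ratio 0.14, adjusted p = 6.27e-17, same exact test). All 3 were higher in replicate 1. Their mean counts lie above the sterol genes' range, so the SD of 0.13 is not that of genes of their count. The spread of genes of their count was not computed.

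Further genes of that list are named after their values were seen. Acss2 and Scd1, lipogenic genes that make acetyl-CoA and desaturate fatty acids, had log2 ratios of 0.48 and 0.43, within the range of Pmvk, Mvd and Mvk. Srebf1, the relative of Srebf2 that drives lipogenesis, was at 32.5 and 31.1 FPKM and was not called (log2 ratio 0.06). Srebf2 stood 2.18-fold above it in replicate 1 and 2.21-fold in replicate 2, in FPKM, or 1.97-fold with GENCODE lengths. Soat2, Nfyb and Sp1 were the 3 genes lower in replicate 1, with log2 ratios of -0.31, -0.28 and -0.11. Nfyb encodes a subunit of NF-Y, and its relatives Nfya (-0.11) and Nfyc (0.14) were not called.

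Other properties were set beside the ratios. Of the 10 hepatocyte markers 7 were called higher in replicate 1, beside 6.38% of all genes tested, and 0 lower. Their median log2 ratio was 0.08. The SD of 0.13 is of single genes in the sterol genes' range of counts and does not measure the spread of a median. Several of these markers also have counts above that range. High counts let small ratios pass: Apob was called at 0.03 with a mean of 49416 counts, and Alb at 0.07 with 34841. Serpina1a had the greatest ratio (0.37), about that of Pmvk, followed by Trf (0.18), Fgb (0.16), Apoa1 (0.12), Ttr (0.09), Alb (0.07) and Apob (0.03), and Cyp2e1 stood at -0.24 without a call. Their summed level was 3155 FPKM in replicate 1 and 2914 FPKM in replicate 2, and Hnf4a, the hepatocyte transcription factor, had a ratio of -0.01. The part of these differences in the sterol result was not tested.

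Gene length moved with the ratio. Across the 29 genes Spearman's rho between the ratio and the length implied by the authors' files was -0.64, as a description over genes of the same 2 libraries, and across the 7248 genes of like count it was -0.15. The 7 sterol genes under 2000 bases were all called higher, with a median ratio of 0.28, beside 9.12% called higher and a median of 0.01 among the 1359 genes of like count and that length. Of the 9 sterol genes from 2000 to below 4000 bases 6 were higher (median 0.17), beside 8.69% and a median of -0.0043 among 2508 genes. Of the 13 of 4000 bases or more 3 were higher (median 0.06), beside 5.03% and a median of -0.03 among 3381 genes. In each class of the authors' lengths the sterol genes' median was thus above that of all genes of like count, and the regulators and transport genes fell mostly in the longest class. By GENCODE exon lengths, of the 7 genes under 2000 bases only Pmvk (1713 bases) and Mvd (1859 bases) would stay there. Fdps (4208 bases), Tm7sf2 (4403 bases) and Msmo1 (6144 bases) would join the longest class. The rho and the classes were not remade with those lengths. How much of the gap between enzymes and regulators goes with length was not tested.

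**Figure D5:**
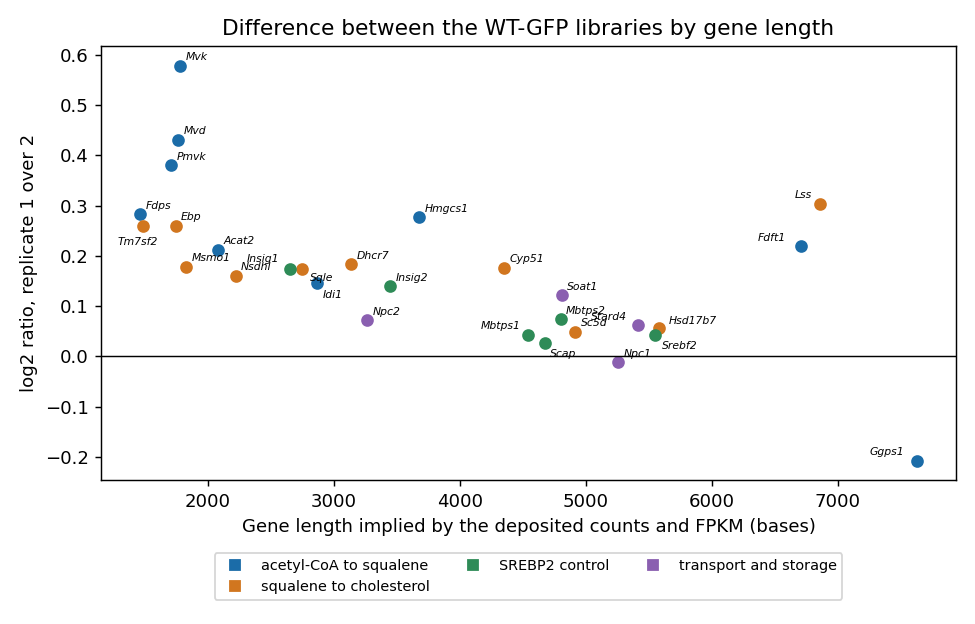
Log2 ratio of WT-GFP replicate 1 over replicate 2 against gene length in bases, as implied by the deposited counts and FPKM, for the 29 sterol genes coloured by role. Genes under 2000 bases all lie above 0.17, and most control and transport genes lie beyond 4000 bases, near 0.

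Reads of some genes could not be assigned with certainty. By GENCODE release M21, 7 of the 29 genes share exon bases with another protein-coding gene. Fdps, Mbtps2 and Tm7sf2 do so on the same strand (26.7%, 28.4% and 12.1% of their exon bases), and Fdft1, Ggps1, Npc1 and Cyp51 on the opposite strand (18.3%, 5.44%, 4.52% and 3.76%). The sources used here do not say how reads were counted or whether strand was used, so the values of these 7 genes are less certain. Acat2 has a close mouse relative, Acat3, and shares that limit.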

How the data were processed

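A stranded mRNA kit was used for the libraries, per the labels' protocols. The deposited table holds the authors' raw counts per symbol in 9 numbered columns, and 2 samples also have deposited FPKM values, per the file headers. The aligner HISAT2 (2.2.1.0) and, as builds, both mm10 and hg38 stand in the submitters' processing notes, with no role for either build. The read counter, its annotation and its use of strand were not given in the sources used here. Columns were matched to samples by name only, which left 7 count columns unused. Lengths implied by counts and FPKM were whole numbers within 0.01 bases for 100% of genes with a count, so the deposited FPKM are those counts per total and length, not a second measurement.

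Counts of the 2 libraries were compared per gene with a two-sided exact binomial test in scipy 1.17.1 (mean of at least 10 counts, Benjamini-Hochberg, threshold 0.05). The test was checked on simulated Poisson counts, which hold no spread between libraries beyond counting error. That check therefore does not bear on such spread. Log2 ratios add 0.5 to each count. TMM factors, dispersion and exactTest came from edgeR 4.0.16 and size factors from DESeq2 1.42.0. Positions and exon lengths are from GENCODE release M21 (GRCm38, the assembly of mm10). A chi-square of the counts reached 5.25 times its degrees of freedom (12301), so the pair was not treated as 1 library. Whether replicates are separate cultures is not labelled, and p-values measure only how these libraries differ, which may be technical. The 29 genes and all lists were chosen with earlier results of these data known, the motifs after sequences were seen. Values per library are given for all 29 genes. The rule named the 3 highest genes of the list of 37, and the others of that list were named after their values were seen. Some genes of the pathway are not reported here.

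The planned comparisons of KO-ATP7B, KO-GFP and WT-GFP were not run.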

Additional observations from a re-analysis of the deposited data

How the results depend on the processing

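Of the 29 genes, 16 were higher in replicate 1 under the library totals, beside 6.38% of all genes tested. TMM and DESeq2 scaling each gave 18 (7.79% and 8.15% of all), Idi1 and Npc2 being gained. The number was 15 without a count filter (4.64% of all) and 16 with a mean of at least 50 counts (7.25%). It was 14 at an adjusted p of 0.01 (3.67% of all). By edgeR's exactTest with a common dispersion it was 1, Mvk (0.146% of all). The lower count of 1 (Ggps1, beside 8.38% of all genes) became 0 at 0.01 (4.96% of all) and 0 by exactTest (0.496%). The adjusted p of Ggps1 was 0.0186 in the exact binomial test, and exactTest adds spread between libraries. That exactTest called 18 genes higher and 61 lower of all 12302. With a log2 ratio of at least 0.2 in size required, 11 of the 17 calls remained. Of these 10 were higher and 1 lower, beside 2.61% and 4.42% of all genes tested. The ratio of Npc1 reversed to 0.0020 with TMM and 0.0053 with DESeq2 scaling (adjusted p = 1.0 and 0.979, exact binomial test). Scaling also moved the split of all genes, from 785 higher and 1031 lower to 958 and 836 with TMM and 1002 and 799 with DESeq2. Genes at 10 FPKM or more numbered 25, and 24 to 25 with a replicate left out, and 23 with GENCODE exon lengths. The median level was 26.8 to 31.2 FPKM with a replicate left out, and 20.8 FPKM with GENCODE exon lengths, which are longer for most of these genes. Thresholds of 5 and 20 FPKM gave 29 and 19 genes, and the shares of all genes at these thresholds were not computed. Counting error still limits the calls: Idi1 and Insig2, with 1305 and 1166 counts on average, were not called at log2 ratios of 0.15 and 0.14, and the spread between cultures is not known. No paired analysis was possible because the 2 usable libraries belong to the same group, WT-GFP. The comparisons between groups and their alternatives (DESeq2, replicate block, leaving out libraries) were not run.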
